A study of Mus musculus with 4 samples.

Results

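The genes described here fold, quality-control and dispose of proteins in the endoplasmic reticulum (ER) or signal when that compartment is overloaded. They are 34 of the 31828 genes in the deposited table and were taken by symbol, and all 34 were found. By role they are 14 ER chaperones and folding enzymes, 7 genes of ER-associated degradation, 4 sensors and effectors of the unfolded protein response, 7 genes of the PERK/ATF4 arm and 2 genes of the translocation channel. RNA was sequenced from alpha mouse liver 12 (AML12) cells, an established line of mouse hepatocytes, with 2 libraries from flat cultures in dishes (2D) and 2 from cultures held in a gel of basement membrane proteins, Matrigel (3D). All cultures had been given serum, insulin, transferrin, selenite and dexamethasone (40 ng/mL), and all were synchronised with 1 mM hydroxyurea, which stops DNA replication, so that none of the libraries is free of drug. The 2D cells were exposed to it for 24 h and the 3D cells for 36 h, so that the duration of treatment and the culture form cannot be told apart. Nothing in the labels says whether the replicates were separate cultures, and p-values then measure only the spread between these libraries, which may be technical. All come from a single line, and in such bulk RNA fewer cells of a type and less RNA per cell cannot be told apart.

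Secretory proteins enter the ER through the SEC61 channel, are folded there by chaperones such as BiP (encoded by Hspa5) and by disulfide isomerases, and are sent back to the cytosol for destruction when folding fails. Sensors in the ER membrane watch this load. IRE1 (Ern1) splices the mRNA of Xbp1, ATF6 is cleaved into a transcription factor, and PERK (Eif2ak3) phosphorylates eIF2alpha, which lowers general translation and favours that of Atf4. Hepatocytes secrete most plasma proteins and carry a large ER. Levels are given as TPM (transcripts scaled to a fixed total per library), which are corrected for transcript length and can therefore be compared between genes, but a gene-level value shows neither the splicing of Xbp1 nor the cleavage of ATF6 nor the phosphorylation of eIF2alpha.

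Many chaperone genes carry the ER stress response element, CCAAT and CCACG with 9 bases of any kind between them, in their promoters. A second form has ATTGG and CCACG with 1 base between them. RefSeq promoter windows (GRCm38.p6, 250 bases before to 50 after the start of a gene) were held for 30 of the 34 genes, with 32 windows in all, and were searched on both strands. The first form lay in 9 of these 32 windows (28.1%), against 0.119% of all 32851 windows, and in the windows of 7 of the 12 chaperone and folding genes that had one. The second form lay in 2 of the 32 windows, against 0.0365% of all. These elements are shown because they are what several of the genes share in sequence. Each is read on its own strand, 5′ to 3′, with the defining bases in capitals, and none of the elements shares bases with another.
Hspa5, chr2:34772025-34772043 (+ strand): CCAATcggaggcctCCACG
Hsp90b1, chr10:86705638-86705656 (- strand): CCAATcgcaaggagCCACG
Hsp90b1, chr10:86705533-86705551 (+ strand): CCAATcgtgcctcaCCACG
Calr, chr8:84847075-84847093 (+ strand): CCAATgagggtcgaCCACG
Canx, chr11:50325800-50325818 (- strand): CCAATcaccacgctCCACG
Pdia6, chr12:17266491-17266509 (+ strand): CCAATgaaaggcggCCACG
Creld2, chr15:88819520-88819538 (- strand): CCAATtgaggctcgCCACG
Dnajc3, chr14:118937827-118937845 (+ strand): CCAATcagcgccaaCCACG
Syvn1, chr19:6046532-6046550 (+ strand): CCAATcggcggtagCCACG
Derl3, chr10:75893242-75893260 (- strand): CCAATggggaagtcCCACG
Herpud1, chr8:94386377-94386387 (+ strand): ATTGGgCCACG
Dnajb11, chr16:22857852-22857862 (+ strand): ATTGGcCCACG

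Of the 8 genes with the first form that could be tested, 3 were higher in 3D (Calr, Canx and Pdia6), 1 was lower (Creld2) and 4 were not called (Hspa5, Hsp90b1, Dnajc3 and Syvn1), so that 4 of 8 were called, near the 50.5% of all tested genes with a call. Of these calls that of Calr alone held under every alternative tried. For the C/EBP-ATF response element, through which ATF4 acts, a single form was searched, TGATGNAAT. That form was found in 0 of the 32 windows and in 0.965% of all windows. Forms with another last base were not counted. The windows of Asns (tgatgaaac) and, on the other strand, of Chac1 and Herpud1 (gttgcatca) hold such a form. The sequence TGACGTGG, to which XBP1 can bind, was in 0 of the 32 and in 0.676% of all. No match says only that these letters are not in these windows. The 250 bases before the RefSeq start are printed for 5 genes with an element: Herpud1, with the largest rise, Calr, the most abundant, Hspa5, Hsp90b1, with 2 elements, and Creld2. Capitals mark the same bases as above, as they read on the strand of the gene, and starts are those of RefSeq, which can differ from those of the deposited genes.
Herpud1 promoter, chr8:94386179-94386428 (+ strand): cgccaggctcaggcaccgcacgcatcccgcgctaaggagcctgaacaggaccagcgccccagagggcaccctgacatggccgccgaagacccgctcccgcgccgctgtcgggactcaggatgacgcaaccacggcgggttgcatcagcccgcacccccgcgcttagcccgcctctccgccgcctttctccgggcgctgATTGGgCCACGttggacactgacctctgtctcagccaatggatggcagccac
Calr promoter, chr8:84846932-84847181 (- strand): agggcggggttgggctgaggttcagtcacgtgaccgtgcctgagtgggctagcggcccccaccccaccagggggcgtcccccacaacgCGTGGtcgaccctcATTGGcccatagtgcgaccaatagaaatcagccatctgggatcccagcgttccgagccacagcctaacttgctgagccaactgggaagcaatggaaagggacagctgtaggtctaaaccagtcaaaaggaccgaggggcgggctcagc
Hspa5 promoter, chr2:34771840-34772089 (+ strand): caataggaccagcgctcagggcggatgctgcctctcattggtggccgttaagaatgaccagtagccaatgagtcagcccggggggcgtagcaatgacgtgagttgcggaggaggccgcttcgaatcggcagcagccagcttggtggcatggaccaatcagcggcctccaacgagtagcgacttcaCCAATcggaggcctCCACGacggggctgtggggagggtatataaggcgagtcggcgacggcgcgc
Hsp90b1 promoter, chr10:86705445-86705694 (- strand): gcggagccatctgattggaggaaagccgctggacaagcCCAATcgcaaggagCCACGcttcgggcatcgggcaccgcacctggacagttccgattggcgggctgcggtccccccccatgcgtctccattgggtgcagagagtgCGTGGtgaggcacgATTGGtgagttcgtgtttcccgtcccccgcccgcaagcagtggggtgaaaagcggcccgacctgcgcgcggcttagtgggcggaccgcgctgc
Creld2 promoter, chr15:88819396-88819645 (+ strand): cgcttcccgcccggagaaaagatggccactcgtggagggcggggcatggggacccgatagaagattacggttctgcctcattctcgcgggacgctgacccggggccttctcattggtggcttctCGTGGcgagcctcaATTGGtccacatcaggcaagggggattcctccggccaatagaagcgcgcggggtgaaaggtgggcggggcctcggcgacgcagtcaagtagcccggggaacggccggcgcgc

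Across all genes, 14116 had a mean of at least 1 TPM and were tested with limma on log2(TPM + 1), and 50.5% of them had an adjusted p-value under 0.05 and are referred to as called. In 3D 23.4% were called higher and 27.1% lower, with a median log2 fold change of -0.04. Of the 34 genes 33 were tested, and 11 of these (33.3%) were called higher and 10 (30.3%) lower in 3D, so that the list as a whole did not lie on either side. The 2D and 3D libraries did not overlap for 31 of the 33 genes, against 77.5% of all tested genes. By role, the calls were 6 higher and 2 lower among 14 chaperone and folding genes, 3 and 2 among the 6 tested genes of degradation, 2 and 1 among the 4 sensors and effectors, and 0 and 5 among the 7 genes of the PERK/ATF4 arm. Neither translocation gene was called. Derl3, a derlin, was listed at 0 in 3 libraries and at 0.0456 TPM in 2D replicate 2, and was not tested.

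**Figure D1:**
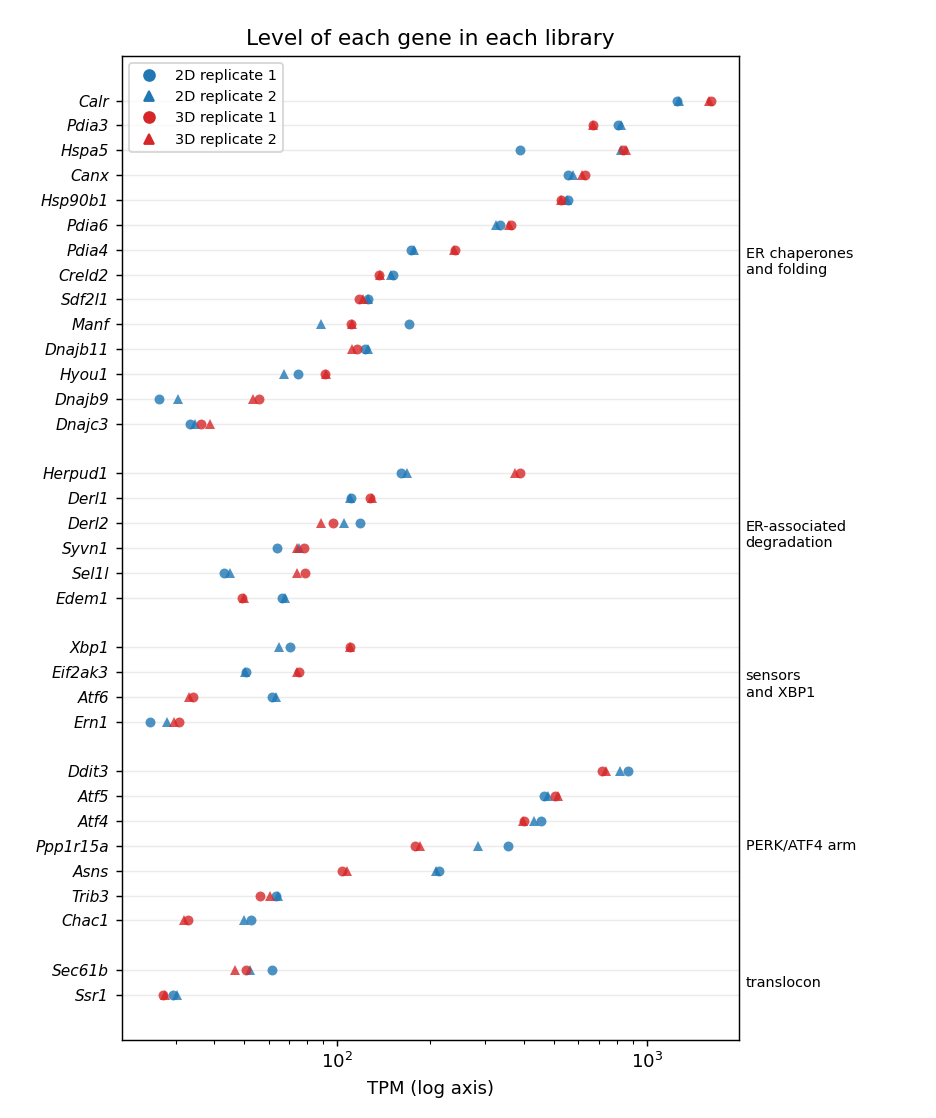
TPM (log axis) of the 33 tested genes in each library, ordered by mean level within each role, with 2D in blue, 3D in red, circles for replicate 1 and triangles for replicate 2. Replicates stand furthest apart for Hspa5 and Manf in 2D (1.08 and 0.93 on the log2 scale). Smaller gaps in 2D are seen for Ppp1r15a (0.32), Sec61b (0.24) and Syvn1 (0.23).

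Calr, the calcium-binding lectin chaperone calreticulin (chromosome 8, 84841850 to 84846934, GRCm38), had the highest level of all 34 genes and ranked 59 by mean TPM in the whole table. It stood at 1253 and 1272 TPM in 2D and at 1619 and 1588 TPM in 3D. All 3D values lay above all 2D values, with a log2 fold change of 0.34 (standard error 0.03, adjusted p by limma 0.00159). Its membrane-bound relative Canx, encoding calnexin, stood at 558 and 578 TPM in 2D and at 633 and 619 TPM in 3D. That is a log2 fold change of 0.14 (standard error 0.04, adjusted p by limma 0.0336). The call was lost under several of the alternatives given at the end, such as the replicate block (adjusted p by limma 0.0895).

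The BiP gene Hspa5 (chromosome 2, 34771970 to 34777547), the main ER chaperone and a standard marker of ER stress, gave no clear answer. Its level was 391 and 826 TPM in the 2D libraries and 837 and 854 TPM in the 3D libraries. The first 2D library alone was low, while the second was near the 3D level. The log2 fold change was 0.57 with a 95% interval from -0.36 to 1.51 (adjusted p by limma 0.239). Without 2D replicate 1 it was 0.03 (adjusted p by limma 0.472), and without 2D replicate 2 it was 1.11 (adjusted p by limma 0.00227), so that the call turned on which single 2D library was kept. A difference of this size between the 2D libraries (1.08 on the log2 scale) was reached by 90 of the 14116 tested genes. Manf, a secreted ER protein, showed the reverse, at 170 and 88.8 TPM in 2D and at 111 and 112 TPM in 3D. Both 3D values lay between the 2D values. The log2 fold change was -0.14 (95% interval -0.96 to 0.67, adjusted p by limma 0.720), and it changed sign to 0.32 (adjusted p by limma 0.0142) without 2D replicate 1. The annotated interval of Manf runs over Rbm15b on the same strand, which stood at 36.2 and 37.3 TPM in 2D and at 49.6 and 49.1 TPM in 3D, and the part of this overlap in the Manf values was not tested.

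The partners of BiP gave firmer values. Dnajb9, encoding the co-chaperone ERdj4 that delivers substrates to BiP and holds IRE1 back, stood at 26.5 and 30.6 TPM in 2D and at 55.8 and 53.4 TPM in 3D. This was the largest rise of the chaperone group, with a log2 fold change of 0.91 (standard error 0.09, adjusted p by limma 0.00175). Hyou1, whose product is a nucleotide exchange factor of BiP, rose from 74.5 and 67.2 TPM in 2D to 91.3 and 91.8 TPM in 3D, a log2 fold change of 0.37 (standard error 0.06, adjusted p by limma 0.00964). The other J-domain partners were not called, at log2 fold changes of 0.13 for Dnajc3 (adjusted p by limma 0.135) and -0.13 for Dnajb11 (adjusted p by limma 0.0732). Sdf2l1, which works beside Dnajb11, was likewise not called, at 126 TPM in either 2D library and 117 and 121 TPM in 3D (95% interval of the log2 fold change -0.18 to 0.03).

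Hsp90b1, the ER paralogue of HSP90, has 2 copies of the element in its promoter and was not called. It stood at 557 and 555 TPM in 2D and at 529 and 527 TPM in 3D. The log2 fold change was -0.07 with a 95% interval from -0.16 to 0.01 (adjusted p by limma 0.113). A microRNA gene of 133 bases, Gm25745, lies inside the deposited interval of Hsp90b1 on the same strand, near its start. Gm25745 was listed at 292 to 305 TPM in the 4 libraries, and its part in the level of Hsp90b1 was not tested.

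The disulfide isomerases moved in opposite directions. Pdia4 stood at 173 and 176 TPM in 2D and at 240 and 239 TPM in 3D, a log2 fold change of 0.45 (standard error 0.04, adjusted p by limma 0.00115). Pdia6 rose far less, from 336 and 326 TPM to 364 and 359 TPM, a log2 fold change of 0.13 (standard error 0.04, adjusted p by limma 0.0416). That call, too, was lost under several alternatives, such as the replicate block (adjusted p by limma 0.0995). Pdia3, which acts on glycoproteins bound to calnexin and calreticulin, fell from 806 and 824 TPM in 2D to 670 and 672 TPM in 3D, with a log2 fold change of -0.28 (standard error 0.03, adjusted p by limma 0.00301). Thus Calr and its isomerase partner changed in opposite directions, each with no overlap between the cultures. Creld2, a gene known for its response to ER stress, was at 151 and 150 TPM in 2D and at 136 and 137 TPM in 3D (log2 fold change -0.14, adjusted p by limma 0.0364), and that call was lost under several of the alternatives given at the end.

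Summed over the 14 chaperone and folding genes, the level was 4778 and 5178 TPM in 2D and 5555 and 5523 TPM in 3D. The mean was 11.3% higher in 3D (4978 ± 283 against 5539 ± 23.2 TPM, SD, n = 2 each). With 2 libraries in each culture the lowest two-sided p of an exact permutation test is 0.33, so that this difference could not be tested. Hspa5 carried a good part of the difference. Without it, the sums were 4387 and 4352 TPM in 2D and 4719 and 4668 TPM in 3D.

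**Figure D2:**
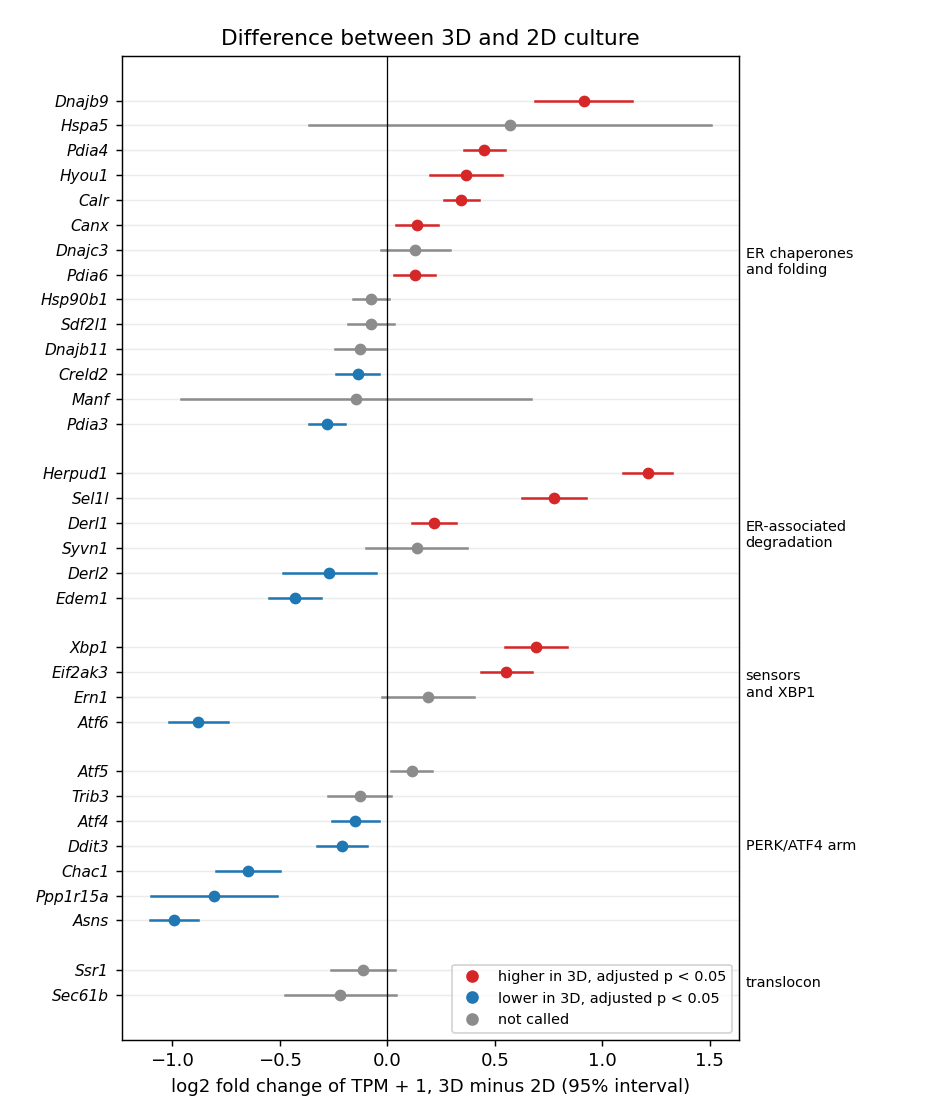
Log2 fold change of TPM + 1 (3D minus 2D) of each tested gene with its 95% interval from limma, in red where called higher in 3D, in blue where called lower and in grey where not called. Herpud1 is highest at 1.21 and Asns lowest at -0.99, and the intervals of Hspa5 and Manf are the widest.

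Genes of ER-associated degradation held the largest rise of the 34 genes. Herpud1 (chromosome 8, 94386438 to 94395377), a membrane protein that organises the degradation complex, stood at 161 and 168 TPM in 2D and at 389 and 375 TPM in 3D, 2.32 times the 2D mean. The log2 fold change was 1.21 (standard error 0.04, adjusted p by limma 0.000269). Sel1l, the adaptor of the ubiquitin ligase HRD1, rose from 43.1 and 44.9 TPM to 78.4 and 73.8 TPM, with a log2 fold change of 0.78 (standard error 0.06, adjusted p by limma 0.00092). The ligase gene itself, Syvn1, did not separate by culture. It stood at 63.8 and 74.99 TPM in 2D and at 78.1 and 74.3 TPM in 3D (log2 fold change 0.14, 95% interval -0.10 to 0.37, adjusted p by limma 0.260), and was called higher without 2D replicate 2 (adjusted p by limma 0.0425).

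The remaining degradation genes went both ways. Derl1, a channel component, rose from 111 and 110 TPM to 128 and 129 TPM, a log2 fold change of 0.22 (standard error 0.04, adjusted p by limma 0.0103). Its paralogue Derl2 stood at 119 and 105 TPM in 2D and at 97.0 and 88.4 TPM in 3D, a log2 fold change of -0.27 (standard error 0.08, adjusted p by limma 0.0487). This call is close to the threshold and was lost under several alternatives. Edem1, which marks misfolded glycoproteins for removal and is a classical target of XBP1, fell from 66.3 and 67.7 TPM to 49.3 and 49.8 TPM, with a log2 fold change of -0.43 (standard error 0.05, adjusted p by limma 0.00257). The sum over the 7 genes was 563 and 571 TPM in 2D and 819 and 791 TPM in 3D, and Herpud1 made up most of that difference.

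Among the sensors, the 3 branches did not move together at the level of RNA. Atf6 (chromosome 1, 170704674 to 170867771) fell from 61.5 and 63.5 TPM in 2D to 34.01 and 33.09 TPM in 3D. Its log2 fold change was -0.88 (standard error 0.05, adjusted p by limma 0.000587), lower in value only for Asns among the 34 genes. Eif2ak3, encoding PERK, rose from 50.7 and 50.1 TPM to 75.2 and 73.8 TPM, a log2 fold change of 0.56 (standard error 0.05, adjusted p by limma 0.00123). Ern1, encoding IRE1, stood at 24.7 and 28.1 TPM in 2D and at 30.8 and 29.7 TPM in 3D and was not called (log2 fold change 0.19, 95% interval -0.02 to 0.40, adjusted p by limma 0.112), but was called higher without 2D replicate 2 (adjusted p by limma 0.0484). Xbp1, the transcription factor that IRE1 activates by splicing and which secretory cells need, rose from 70.4 and 65.0 TPM to 110 TPM in either 3D library. Its log2 fold change was 0.69 (standard error 0.06, adjusted p by limma 0.00116).

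Of the 7 genes of the PERK/ATF4 arm 5 were called lower, against 27.1% of all tested genes, and 0 higher, and the median log2 fold change was -0.21 against -0.04 for all tested genes. Ddit3 was the most abundant of them and ranked 139 by mean TPM in the whole table. Asns, which makes asparagine and is induced by ATF4 when amino acids are short, stood at 214 and 209 TPM in 2D and at 104 and 108 TPM in 3D, a ratio of 0.50 and a log2 fold change of -0.99 (standard error 0.04, adjusted p by limma 0.000335). Ppp1r15a, encoding the phosphatase subunit GADD34 that reverses eIF2alpha phosphorylation, fell from 355 and 285 TPM to 179 and 185 TPM. The log2 fold change was -0.81 (standard error 0.11, adjusted p by limma 0.00495). Chac1, a glutathione-degrading enzyme, fell from 52.6 and 50.0 TPM to 33.0 and 31.8 TPM (log2 fold change -0.65, standard error 0.06, adjusted p by limma 0.00148).

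The transcription factors of this arm had smaller fold changes than those targets. Ddit3, encoding CHOP, stood at 868 and 818 TPM in 2D and at 717 and 740 TPM in 3D, a log2 fold change of -0.21 (standard error 0.04, adjusted p by limma 0.0167), a call that was lost with a constant prior variance (0.0601). Atf4 itself stood at 456 and 431 TPM in 2D and at 401 and 399 TPM in 3D, a log2 fold change of -0.15 (standard error 0.04, adjusted p by limma 0.0388). That call is near the threshold and was lost under several alternatives, and since ATF4 is controlled mainly through translation its RNA level says little of the protein. Atf5 was the exception in sign, at 465 and 479 TPM in 2D and at 505 and 517 TPM in 3D, and was not called (log2 fold change 0.11, adjusted p by limma 0.0550). Trib3, a CHOP target that feeds back on the response, was not called either (log2 fold change -0.13, 95% interval -0.27 to 0.02, adjusted p by limma 0.117). Summed over the 7 genes the level was 2474 and 2337 TPM in 2D and 1995 and 2041 TPM in 3D.

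**Figure D3:**
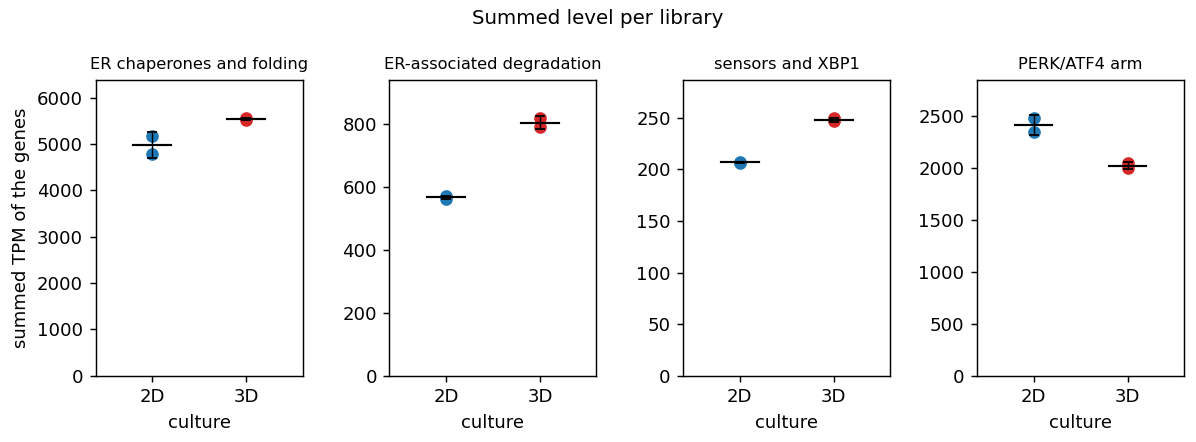
Summed TPM of the genes of each role in each library (points), with the mean (bar) and SD (n = 2 per culture), each axis starting at 0. The sums of degradation genes and of sensors were higher in 3D, that of the PERK/ATF4 arm was lower, and the chaperone sum in 2D is spread by Hspa5.

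Neither gene of the translocation channel was called with all 4 libraries. Sec61b, a subunit of SEC61, stood at 61.5 and 52.0 TPM in 2D and at 50.5 and 46.6 TPM in 3D (log2 fold change -0.22, 95% interval -0.48 to 0.04), and was called lower without 2D replicate 2 (adjusted p by limma 0.0383). Ssr1, of the translocon-associated complex, stood at 29.4 and 30.3 TPM in 2D and at 27.4 and 27.8 TPM in 3D (log2 fold change -0.11, 95% interval -0.26 to 0.04).

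A further 130 genes of the same pathways, listed by role, placed these values in context. Of the 127 tested, 26 (20.5%) were called higher and 55 (43.3%) lower in 3D, against 23.4% and 27.1% of all tested genes. Their median log2 fold change was -0.12. The 14 chaperone genes had a median of 0.13, and the 31 tested folding genes outside the 34 one of -0.16. Of these 31, 7 (22.6%) were higher and 15 (48.4%) lower. P4hb, the most abundant of them and the main disulfide isomerase, stood at 608 and 611 TPM in 2D and at 667 and 688 TPM in 3D (log2 fold change 0.15, adjusted p by limma 0.0208). Ppib, a prolyl isomerase, fell from 541 and 521 TPM to 444 and 445 TPM (log2 fold change -0.26, adjusted p by limma 0.00529). Fkbp9, another, fell from 160 and 168 TPM to 90.8 and 87.5 TPM, a log2 fold change of -0.87 (adjusted p by limma 0.0005).

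Of 28 tested genes of translocation and glycosylation, 3 (10.7%) were higher and 12 (42.9%) lower, against 23.4% and 27.1% of all tested genes. Their median was -0.14. Sec61a1, the channel itself, fell from 237 and 246 TPM to 186 and 190 TPM (log2 fold change -0.36, adjusted p by limma 0.0027). Spcs3, of the signal peptidase, fell most (log2 fold change -0.84, adjusted p by limma 0.000494), and Rpn1, of the oligosaccharyl transferase, rose most among the called genes (0.44, adjusted p by limma 0.00172). Among 23 further degradation genes 4 (17.4%) were higher and 6 (26.1%) lower, neither above the share of all tested genes. Ubxn6 and Nploc4, cofactors of the extraction ATPase VCP, rose, with log2 fold changes of 0.57 and 0.40 (adjusted p by limma 0.00754 and 0.00209), and Selenos, a membrane partner of that ATPase, fell (-0.44, adjusted p by limma 0.0185). March6 was also called higher, and Ube2j1 and Ubxn4 were called lower. Among 8 other sensors and their proteases, 3 (37.5%) were higher and 2 (25%) lower. Creb3l3, a liver-enriched relative of ATF6, rose from 6.46 and 6.30 TPM to 11.3 and 10.1 TPM (log2 fold change 0.67, adjusted p by limma 0.00481). Mbtps1, the protease that cleaves ATF6, rose by 0.47 (adjusted p by limma 0.00358), while Atf6b did not separate by culture (-0.03, adjusted p by limma 0.667). Creb3, another relative, fell from 67.9 and 66.9 TPM to 50.3 and 46.3 TPM (log2 fold change -0.47, adjusted p by limma 0.00375), and Wfs1, an ER membrane protein that restrains ATF6, fell as well (-0.31, adjusted p by limma 0.0182).

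The longest of these lists, 37 tested genes of the eIF2alpha and ATF4 response, had 9 genes (24.3%) higher and 20 (54.1%) lower. Of all tested genes 23.4% were higher and 27.1% lower. The list had a median of -0.19 beside -0.21 for the PERK/ATF4 genes above. The lower calls were not spread evenly over subgroups formed after the values were seen. Of 11 aminoacyl-tRNA synthetases 9 were lower and 1 higher. Of 7 genes of serine, one-carbon and proline synthesis 6 were lower and 1 higher. Among 4 transcription factors and cofactors 3 were higher and 1 lower. Of 5 genes for eIF2alpha, its kinases and a phosphatase subunit, 2 were higher and 1 lower, and of 4 amino acid carriers 0 and 2. Shmt2 and Mthfd2, mitochondrial enzymes of serine and one-carbon metabolism, had the lowest fold changes. Shmt2 fell from 189 and 195 TPM in 2D to 80.7 and 78.8 TPM in 3D, a log2 fold change of -1.26 (adjusted p by limma 0.000241). Mthfd2 fell from 192 and 188 TPM to 87.9 and 87.1 TPM (-1.11, adjusted p by limma 0.000266). Phgdh, the first enzyme of serine synthesis, was higher, at 368 and 356 TPM in 2D and 403 and 421 TPM in 3D (log2 fold change 0.19, adjusted p by limma 0.0205). The transcription factors went both ways. Cebpg, a partner of ATF4, and Cebpb, a liver-enriched factor, rose, with log2 fold changes of 0.53 (adjusted p by limma 0.00603) and 0.23 (adjusted p by limma 0.0236). Atf3, a stress-induced repressor and activator named after its values were seen, fell from 463 and 379 TPM to 269.7 and 325 TPM (log2 fold change -0.50, adjusted p by limma 0.0337).

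**Figure D4:**
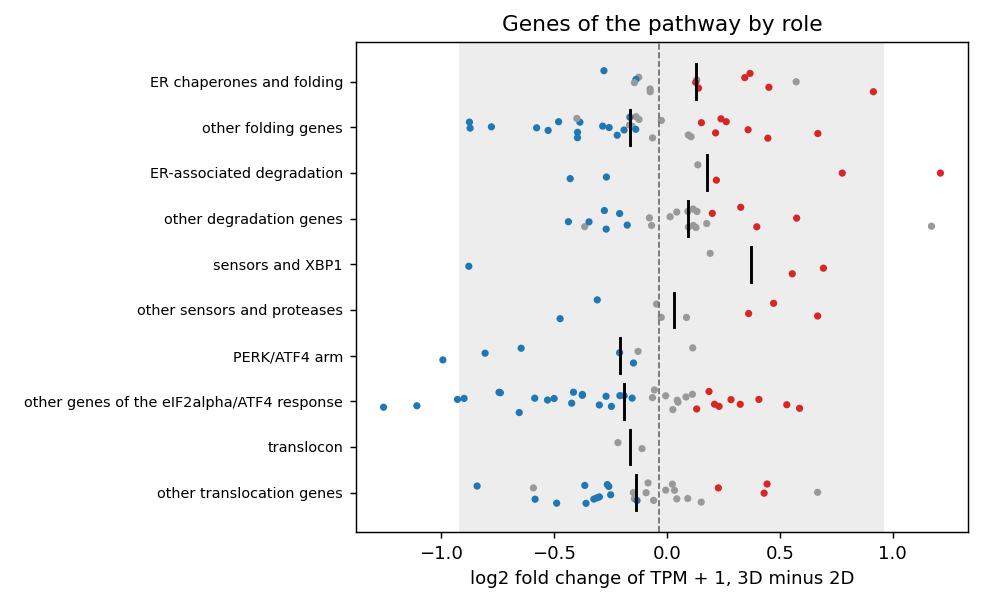
Log2 fold change of TPM + 1 (3D minus 2D) of each tested gene by role, coloured as called higher (red), lower (blue) or not called (grey), with the median of each role (black bar), the median of all tested genes (dashed line) and the range from their 5th to their 95th percentile (grey band). Medians of the PERK/ATF4 genes (-0.21) and of the other genes of that response (-0.19) lie left of the dashed line. So do those of the other folding genes (-0.16), the translocon genes (-0.16) and the other translocation genes (-0.14).

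Chaperones outside the ER served as the nearest list for comparison. Of 14 tested heat shock chaperones of the cytosol and mitochondria, 8 (57.1%) were higher and 1 (7.14%) lower in 3D. The shares of all tested genes were 23.4% and 27.1%. The median log2 fold change of the list was 0.23. Its summed level over all 17 listed genes did not rise, at 7215 and 6962 TPM in 2D and at 7014 and 7020 TPM in 3D. Hspa8, the cytosolic relative of BiP, rose from 546 and 599 TPM to 963 and 900 TPM (log2 fold change 0.70, adjusted p by limma 0.00151), and Cryab was the gene called lower (-1.57, adjusted p by limma 0.000202). The difference between this list and the ER chaperones was not tested.

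The identity of the cells bears on how a secretory programme is read. All 8 hepatocyte markers listed were tested, with 6 (75%) higher and 2 (25%) lower in 3D, against 23.4% and 27.1% of all tested genes. However, Alb, the defining secreted product, stood at only 0.819 and 1.203 TPM in 2D and at 12.7 and 10.0 TPM in 3D. Keratins were abundant and lower in 3D. Krt18 stood at 6286 and 6128 TPM in 2D and at 3275 and 3320 TPM in 3D, and Krt19, of bile duct cells, at 1728 and 1647 TPM in 2D and at 1174 and 1226 TPM in 3D. With Krt8 and Krt18 among the 8, the summed hepatocyte list fell by 40.3%, from a mean of 9547 to 5702 TPM. Of the 4 tested bile duct markers 2 were higher (Spp1 and Sox9) and 2 lower (Krt7 and Krt19) in 3D. Their log2 fold changes ran from -0.65 to 2.35, the largest being that of Spp1. The whole bile duct list summed to a mean of 2348 TPM in 2D and 2313 TPM in 3D. Of 5 endothelial markers 0 reached a mean of 1 TPM, and their summed level was 0.771 to 1.70 TPM over the 4 libraries. The leukocyte list summed to 19.5 and 18.6 TPM in 2D and to 26.4 and 22.2 TPM in 3D, nearly all of it Cd68, with Ptprc at 0.296 TPM or less. The stellate cell list summed to 34.9 and 37.6 TPM in 2D and to 19.7 and 18.7 TPM in 3D, nearly all of it Des. Mitochondrial genes took 5.37% to 5.44% of the TPM in 2D and 6.51% to 6.78% in 3D. The part of these shifts in the differences above was not tested.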

How the data were processed

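Messenger RNA libraries that keep the strand were sequenced, 2 for each culture. Reads had been cleaned by the authors (cutadapt 1.8.3, Trimmomatic 0.36) and mapped to GRCm38 by HISAT2 2.0.5 with strand taken into account. Ensembl genes were quantified with StringTie 1.3.4, and the authors deposited the resulting TPM per library without pooling. Columns with log2 fold changes and p-values of a DESeq2 comparison, which the authors deposited beside them, were not used. TPM keep no depth, so sequencing depth is unknown and no counting interval was computed. TPM have a fixed total per library, so that genes compete for it. An entry of 0 can be a failed estimate.

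Genes with a mean of at least 1 TPM were transformed to log2(TPM + 1) and fitted by culture alone in limma 3.58.1 (R 4.3.3), using the robust eBayes option and a mean-variance trend. The tests are two-sided, with Benjamini-Hochberg adjustment over all 14116 genes. Such fold changes understate those of low genes. Data were simulated with the replicate spread of these libraries over 14116 genes, of which 200 with at least 10 TPM were changed. There 92% of 4-fold and 74% of 2-fold changes were recovered, and 3.49% of 172 calls were false. In the data 50.5% of tested genes were called, many at less than 2-fold, so these rates need not hold for that fit. Groups came from the labels. Same-numbered libraries did not deviate together (correlation of deviations -0.05), so the numbers were not used to pair them.

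The members and lists were chosen with earlier results of these data known, and no set test was run. All 34 genes could be named, and of each further list the 3 genes with the highest mean TPM and up to 3 per direction with the largest change among called genes with at least 10 TPM in the higher culture. Alternatives were other pseudocounts, filters and scalings, a replicate block, a constant prior variance and each library left out. Promoter windows are those of RefSeq, and for 28 of 32 windows the last bases were found in an annotated GENCODE M21 transcript of the same gene. Promoters of Hyou1, Manf, Atf6 and Derl1 and protein sequences were not analysed here. Figures were drawn with matplotlib 3.10.9 in Python 3.11.15.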

Additional observations from a re-analysis of the deposited data

How the results depend on the processing

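Of the 21 called genes among the 34, 13 (7 higher and 6 lower in 3D) kept direction and call under all 13 alternatives. These were Herpud1, Dnajb9, Sel1l, Xbp1, Eif2ak3, Pdia4, Calr, Asns, Atf6, Ppp1r15a, Chac1, Edem1 and Pdia3. Among the 9 alternatives with 4 libraries, Creld2, Atf4, Pdia6, Derl2 and Canx each lost the call in several, and Ddit3 lost it with a constant prior variance. Atf5 gained a call (adjusted p by limma 0.0298) after TPM were rescaled leaving out the mitochondrial genes and the top 20. Members called lower fell from 10 to 6 with a constant prior variance. With the replicate block 9 members were called higher and 8 lower. The difference in summed chaperone level, 561 TPM, was 324 TPM without Hspa5, an alternative chosen after seeing the data. After that rescaling it was 765 TPM. Rescaling raises the TPM of every gene that is left, so these 2 differences are not on the same scale. The median log2 fold change of the chaperones was 0.13 before and 0.16 after it.

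Leaving out each library in turn, where the lone library is assumed to vary like the other culture, gave 7 to 13 members higher and 6 to 11 lower, with 7 higher and 6 lower without 3D replicate 1 and likewise without 3D replicate 2. Hyou1 and Derl1 lost the call only in those fits. All genes called ranged from 2094 to 2988 higher and 2593 to 3205 lower, and the further pathway genes from 13 to 23 and from 34 to 47. Medians ranged from 0.11 to 0.13 for chaperones, 0.12 to 0.23 for degradation genes and -0.25 to -0.17 for the PERK/ATF4 arm, and the chaperone sum differed by 361 TPM without 2D replicate 1 to 761 TPM without 2D replicate 2. Manf changed sign, from -0.14 to 0.32, without 2D replicate 1, and was called lower (-0.61) without 2D replicate 2. Without 2D replicate 2 Hspa5 (1.11), Ern1 (0.28) and Syvn1 (0.25) were also called higher and Sec61b (-0.34) lower. The cause of these changes was not tested.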
